A study of Homo sapiens with 32 samples.

Results

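The genes described here are 48 factors that build ribosomes in the nucleolus, chosen by a list of gene symbols. Of these, 47 had a row in the count table, which held 17788 genes in all, and BOP1 was not analysed here. Values come from 32 RNA-seq libraries of MCF10A cells, an immortalized line of human mammary epithelium. Clones 27 and 2 were JUNB WT, and clones 1 and 65 carried a CRISPR/Cas9 edit of JUNB. The labels call the edited clones JUNB knock-out, and they are called JUNB mut here. Each clone received solvent (BSA in PBS) or 5 ng/ml TGFβ1 for 6, 24 or 72 h (solvent for 72 h) in 2 replications, which made 8 groups of 4 libraries. The mut clones were single cell-derived and still made a shorter JUNB polypeptide, and each genotype rests on 2 clones, so that a genotype difference and a difference between these clones cannot be told apart. The 4 libraries of 1 clone and 1 replication, whose cells were seeded together, are called a series here. Values of a group are listed in the order 27-1, 2-1, 27-2 and 2-2 for WT, and 1-1, 65-1, 1-2 and 65-2 for mut.

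Ribosome production begins when RNA polymerase I transcribes the ribosomal DNA into a long precursor RNA. Small nucleolar RNPs (snoRNPs) then guide chemical modification of this precursor, with the box C/D class directing methylation and the box H/ACA class directing pseudouridylation. Processing factors and helicases fold, cleave and assemble it with ribosomal proteins into the small (40S) and large (60S) subunits. In epithelial cells the pathway is known to be active during growth, and the transcription factor MYC is a known activator of many of its genes. The 47 members comprised 7 factors of RNA polymerase I transcription, 4 nucleolar scaffold proteins and helicases, 4 box C/D and 4 box H/ACA proteins, 12 small subunit factors and 16 large subunit factors.

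Library totals lay between 39702412 and 54651906 counts. The targeted gene JUNB had 97.6 ± 12.9 CPM (counts scaled to a library of 1e+06; SD, n = 4) in WT solvent and 112 ± 47.9 CPM in mut solvent, a log2 difference of 0.10 with an adjusted p of 0.885. Counts summed over a whole gene do not test an edit that leaves a transcript. Of 10 basal mammary epithelial markers, all were detected, with a summed level of 1.33e+04 to 2.52e+04 CPM, while 4 leukocyte markers summed to 5.69 to 24.5 CPM, 2 endothelial markers to 2.94 to 27.0 CPM, 3 fibroblast markers to 4.93 to 34.5 CPM and 2 adipocyte markers to 0.128 to 2.16 CPM. The series WT 27-2 stood apart in a principal component analysis of all tested genes. Its solvent library scored 33 on the third component against at most 0.419 in the other 3 WT solvent libraries. Libraries of mut 1-2 lay off their groups on the first component, but not in a constant direction. Its solvent library scored -32.2 against -45.3 to -42.2 in the other mut solvent libraries. Its 6 h library scored -39.4 against -28.8 to -27.1. Counts of called members that change by over 1.5 times without either series are given with both values. Of the named results, 4 lost their call without WT 27-2 and 5 without mut 1-2.

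In JUNB WT cells the ribosome biogenesis factors fell together after TGFβ1, and the change was largest at 24 h. The mean log2(CPM + 0.5) over the 47 members was 6.72, 6.73, 6.81 and 6.74 in the WT solvent libraries, and 6.02, 6.13, 6.08 and 6.05 at 24 h. No 24 h library came near the solvent libraries, and the change within each series ran from -0.73 to -0.59. At 6 h the means were 6.46, 6.36, 6.53 and 6.32, and at 72 h they were 6.33, 6.29, 6.35 and 6.12. Together the members took 0.768% ± 0.0271 (SD, n = 4) of all counts in WT solvent and 0.611% ± 0.0411, 0.457% ± 0.0152 and 0.536% ± 0.0450 after 6, 24 and 72 h of TGFβ1. In JUNB mut cells the solvent share was 0.728% ± 0.00274, and those after TGFβ1 were 0.644% ± 0.0358, 0.609% ± 0.0165 and 0.660% ± 0.0331 in the same order. These are shares of the RNA sequenced, so that a lower level in every cell and a low level in more of the cells cannot be told apart.

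**Figure D1:**
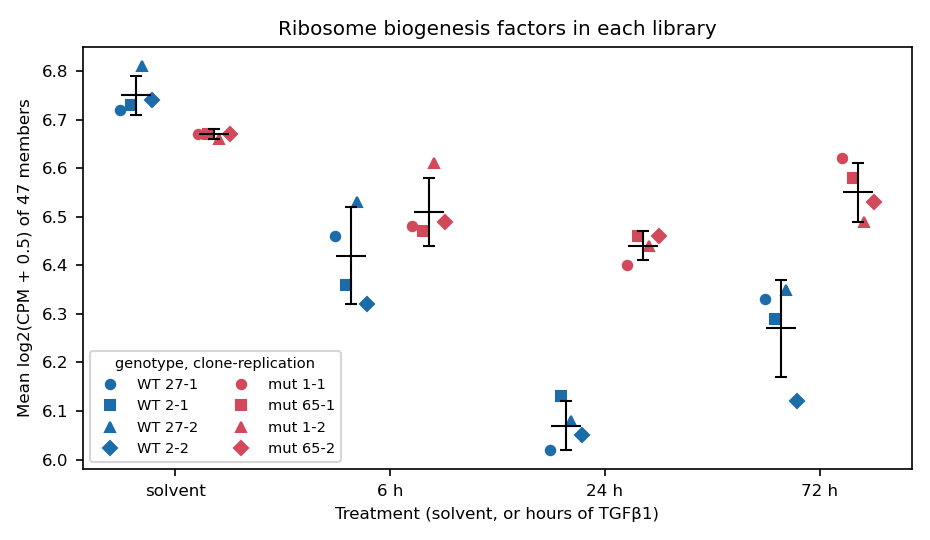
Mean log2(CPM + 0.5) of the 47 members (vertical axis) in each of the 32 libraries, by treatment (horizontal axis), with JUNB WT in blue and JUNB mut in red and 1 symbol for each series. Bars give the group mean and SD (n = 4). The WT libraries at 24 h lie between 6.02 and 6.13 and the mut libraries between 6.40 and 6.46, from solvent levels of 6.72 to 6.81 and 6.66 to 6.67.

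Compared with solvent, 34 of the 47 members were lower in WT at 6 h, 47 of 47 at 24 h and 45 of 47 at 72 h, at an adjusted p under 0.05 (limma-voom, adjusted over all 14865 genes tested), and 0 were higher at any of these times. For the same 3 times the background was 11.9%, 38.0% and 38.4% of all tested genes lower, and 5.13%, 14.1% and 13.9% higher. Median log2 fold changes of the members were -0.35, -0.69 and -0.50, beside -0.08, -0.18 and -0.19 for all tested genes. Relative to that median, the members lay at -0.27, -0.51 and -0.31. With TMM factors, a scaling that assumes most genes do not change, the median of all tested genes in WT at 24 h was 0.00. The counts of lower members were then 31, 43 and 38 against a background of 6.18%, 23.2% and 23.3%. BYSL, DDX10, NOP10 and POLR1D were the 4 members that did not pass at 24 h with that scaling, and GNL2 was higher at 72 h. In 42 members the lowest of the 3 fitted changes was that at 24 h, and in the other 5 it was that at 72 h. At 24 h, 46 of 47 members had no overlap between the WT TGFβ1 and solvent libraries, all of them lower, where the background was 33.1% of tested genes.

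The plot of every member's change is ordered by the steps of the pathway. At 24 h in WT the median log2 fold change was -0.79 for the polymerase I factors, -0.83 for the nucleolar scaffold and helicase proteins, -0.80 for the box C/D proteins, -0.45 for the box H/ACA proteins, -0.63 for the small subunit factors and -0.69 for the large subunit factors. Single members ranged from -1.19 (TCOF1) to -0.19 (NOP10), with an SD of 0.21 between members.

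**Figure D2:**
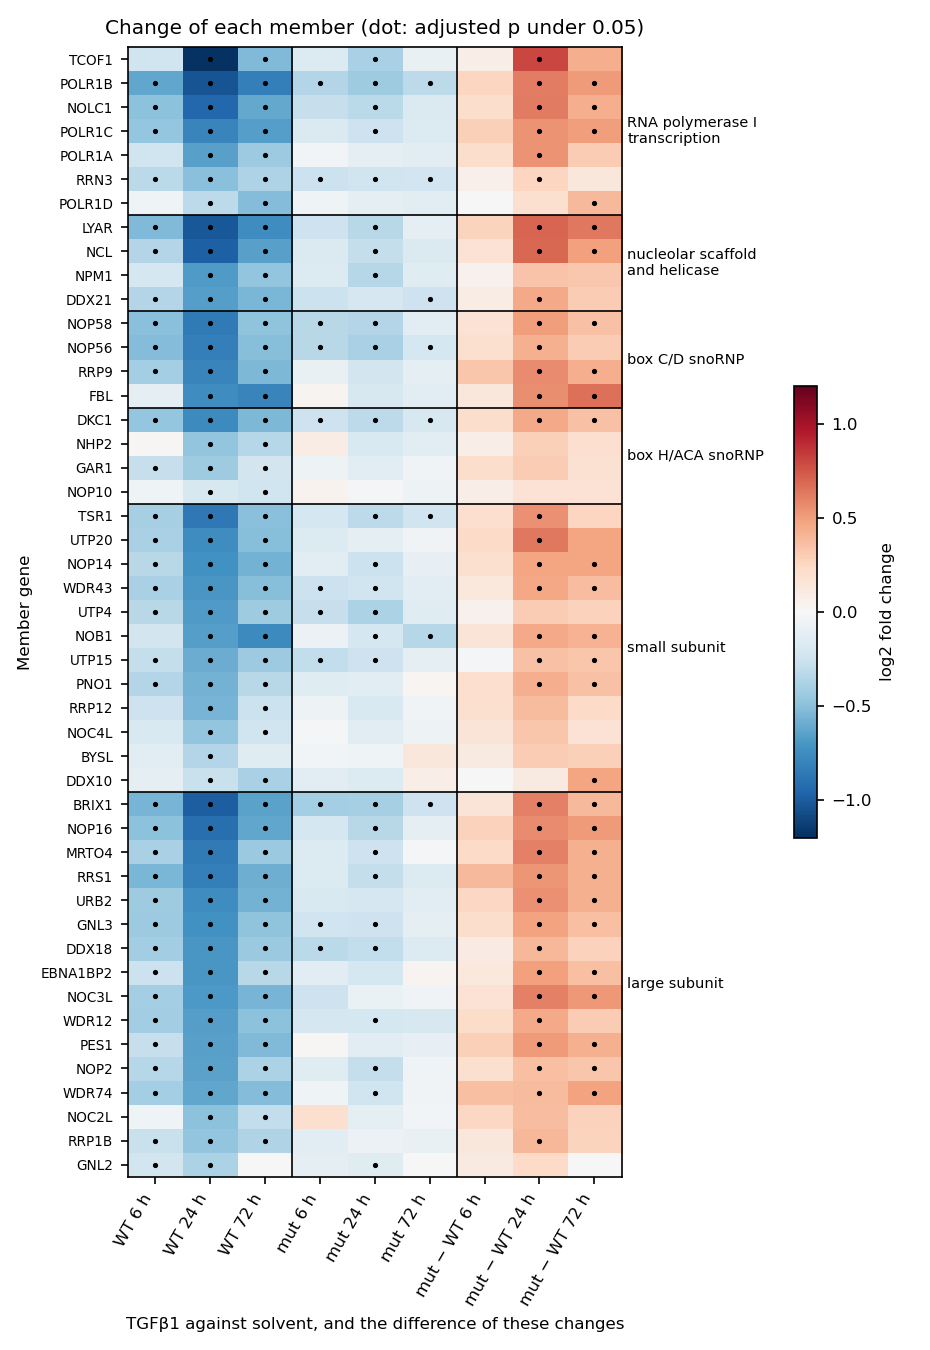
Log2 fold change (colour, scale at right) of the 47 members (rows, grouped by role) for TGFβ1 against solvent in JUNB WT and mut at 6, 24 and 72 h, and for the interaction (change in mut less that in WT). A dot marks an adjusted p under 0.05 in the limma-voom test. Every member carries a dot in WT at 24 h, 27 do in mut at 24 h, and 35 do for the difference at 24 h.

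The RNA polymerase I group holds subunits of the enzyme and the factors that bring it to ribosomal DNA. POLR1B encodes the second largest subunit and lies on GRCh38 chr2:112541915-112579818. It had 156, 151, 152 and 174 CPM in WT solvent, 106, 107, 102 and 96.6 CPM at 6 h, 75.1, 86.7, 66.6 and 81.4 CPM at 24 h, and 94.4, 94.3, 86.7 and 83.8 CPM at 72 h. All WT libraries with TGFβ1 lay below all WT solvent libraries. Its fitted log2 changes were -0.62 ± 0.07, -1.04 ± 0.07 (adjusted p = 2.09e-11) and -0.82 ± 0.07 (SE), in order of time, and were the largest of any member at 6 and 72 h. In mut the levels were 150, 150, 159 and 157 CPM in solvent and 108, 115, 111 and 124 CPM at 24 h, again without overlap, with a log2 fold change of -0.43 ± 0.07 (adjusted p = 0.000115).

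POLR1A, the largest subunit of the enzyme, had 106, 101, 88.7 and 94.6 CPM in WT solvent and 61.0, 72.7, 55.1 and 61.2 CPM at 24 h, where it fell by 0.65 on the log2 scale (adjusted p = 4.47e-06). In mut it had 79.2, 91.1, 76.8 and 75.5 CPM in solvent and 79.9, 73.6, 68.7 and 76.9 CPM at 24 h, which overlapped. RRN3 encodes the initiation factor TIF-IA, which makes the polymerase competent to start. It had 109, 106, 104 and 110 CPM in WT solvent and 75.2, 84.4, 71.8 and 73.2 CPM at 24 h, a log2 fold change of -0.50 ± 0.06. In mut its levels of 97.0, 104, 106 and 108 CPM in solvent and 90.7, 84.5, 85.2 and 90.8 CPM at 24 h also did not overlap. Reads of RRN3 may be shared with its pseudogene RRN3P2, which has its own row. TCOF1, which encodes treacle, a nucleolar protein that supports polymerase I transcription, had 287, 259, 272 and 264 CPM in WT solvent and 118, 129, 126 and 102 CPM at 24 h. Its log2 fold change of -1.19 ± 0.11 (adjusted p = 1.84e-09) was the largest of any member at 24 h, while at 6 h it was -0.24 and did not pass the test (adjusted p = 0.150, or 0.0280 with the series as a block). POLR1C, POLR1D and NOLC1 completed the group, at -0.79, -0.31 and -0.94 in WT at 24 h.

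**Figure D3:**
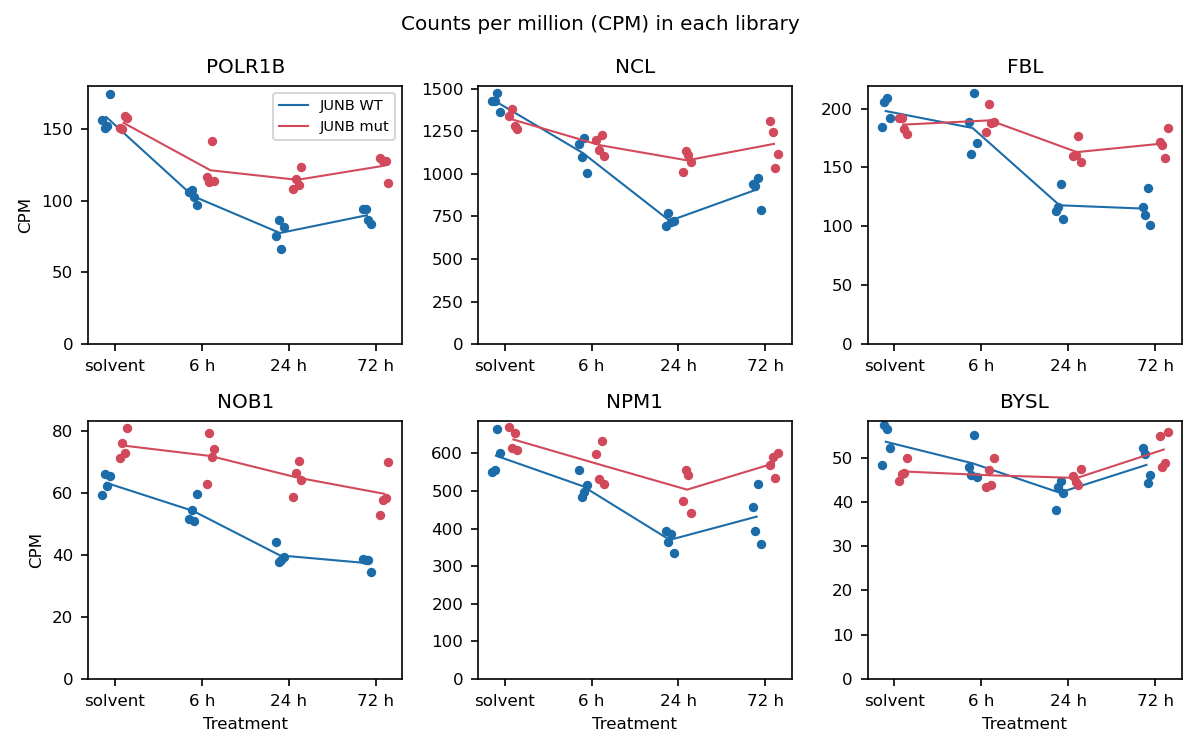
CPM (vertical axes, from 0) of POLR1B, NCL, FBL, NOB1, NPM1 and BYSL in each library (points) by treatment, with lines through the means of 4 libraries, JUNB WT in blue and JUNB mut in red. POLR1B fell at 6, 24 and 72 h in both genotypes, FBL overlaps solvent at 6 h in WT, and the BYSL libraries of the genotypes overlap at 24 h.

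Nucleolin (NCL) and nucleophosmin (NPM1) are abundant proteins that organise the nucleolus and act as chaperones for the assembling particles. NCL had 1426, 1428, 1476 and 1365 CPM in WT solvent and 692, 769, 716 and 720 CPM at 24 h. The mut libraries had 1340, 1383, 1281 and 1266 CPM in solvent and 1009, 1132, 1108 and 1068 CPM at 24 h. The groups did not overlap in either genotype, and NCL fell by 0.98 ± 0.07 in WT and by 0.29 ± 0.07 in mut on the log2 scale. NPM1 had 551, 557, 665 and 602 CPM in WT solvent and 393, 365, 386 and 336 CPM at 24 h, against 670, 615, 655 and 608 CPM and 474, 556, 541 and 442 CPM in mut. NPM1 fell in both genotypes at 24 h, by 0.68 in WT and by 0.34 in mut, and the difference between these changes did not pass the test (adjusted p = 0.0961, or 0.0339 with the series as a block). LYAR, a nucleolar zinc finger protein, fell by 1.02 in WT at 24 h, and the RNA helicase DDX21 by 0.66. Within WT solvent, NCL had the highest level per length of the members, with 160 ± 5.11 CPM per kb of exon (SD, n = 4). The median over members was 24.9 CPM per kb beside 4.65 for all tested genes, where the exon length is the union over annotated transcripts.

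Among the box C/D proteins, FBL (fibrillarin) is the methyltransferase and NOP56 a core scaffold of the particle. FBL had 184, 206, 209 and 192 CPM in WT solvent and 189, 161, 214 and 171 CPM at 6 h, which overlapped. It fell to 113, 117, 136 and 106 CPM at 24 h and to 116, 110, 133 and 101 CPM at 72 h, with log2 fold changes of -0.75 ± 0.08 and -0.79 ± 0.08. FBL was thus among the 5 members with their lowest fitted value at 72 h. In mut it had 192, 192, 183 and 178 CPM in solvent and 171, 169, 158 and 183 CPM at 72 h, and no mut time passed the test (adjusted p = 0.0813 at 24 h, or 0.0139 with the series as a block). NOP56 had already fallen at 6 h, from 217, 232, 228 and 204 CPM in WT solvent to 160, 150, 168 and 139 CPM, and it reached 117, 135, 121 and 126 CPM at 24 h. In mut NOP56 went from 211, 214, 216 and 227 CPM to 157, 167, 158 and 179 CPM at 24 h, a log2 fold change of -0.39 ± 0.08. NOP58 and RRP9 changed by -0.85 and -0.79 in WT at 24 h.

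The box H/ACA proteins had the smallest changes as a group. DKC1 (dyskerin), the pseudouridine synthase, had the largest change of the 4, from 189, 189, 194 and 214 CPM in WT solvent to 116, 124, 111 and 112 CPM at 24 h. Dyskerin RNA fell by 0.76 ± 0.07 in WT and by 0.31 ± 0.07 in mut, where it had 208, 191, 225 and 220 CPM in solvent and 158, 175, 164 and 182 CPM at 24 h. GAR1, a small protein of the same particle, had 20.1, 23.1, 25.1 and 20.7 CPM in WT solvent and 16.8, 16.4, 15.8 and 16.5 CPM at 24 h. Its change was -0.43 ± 0.09 in WT, and in mut it had 21.7, 21.6, 23.7 and 20.8 CPM in solvent and 18.8, 20.6, 20.4 and 20.2 CPM at 24 h. NHP2 changed by -0.47 and NOP10 by -0.19 in WT at 24 h.

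Of the small subunit factors, UTP20 is a large scaffold protein of the early processome, BYSL (bystin) acts in pre-40S maturation, and NOB1 is the nuclease that makes the final cut at the 3′ end of 18S rRNA. UTP20 had 83.2, 77.6, 80.2 and 80.5 CPM in WT solvent and 46.1, 58.2, 39.9 and 48.7 CPM at 24 h, a log2 fold change of -0.75 ± 0.12. In mut its 67.7, 69.7, 64.8 and 61.0 CPM in solvent overlapped the 64.4, 62.9, 58.1 and 56.2 CPM at 24 h. NOB1 had 59.1, 66.1, 62.2 and 65.3 CPM in WT solvent, 44.2, 37.8, 38.2 and 39.2 CPM at 24 h, and 38.5, 38.2, 38.3 and 34.4 CPM at 72 h. NOB1 was the member with the largest change in mut at 72 h, from 71.1, 76.1, 72.7 and 80.8 CPM to 52.9, 57.5, 58.4 and 69.7 CPM (log2 fold change -0.34 ± 0.08, adjusted p = 0.00158). BYSL had 48.4, 57.3, 56.5 and 52.1 CPM in WT solvent and 38.2, 43.5, 44.6 and 42 CPM at 24 h. Of the 13 comparisons, BYSL passed the test only in WT at 24 h, at -0.35 ± 0.07, and with TMM factors it did not do so there (-0.17, adjusted p = 0.0627). In mut its 44.8, 46.3, 46.5 and 49.9 CPM in solvent lay beside 45.8, 44.6, 43.8 and 47.4 CPM at 24 h. The other 9 small subunit factors ranged from -0.86 (TSR1) to -0.27 (DDX10) in WT at 24 h.

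Of the large subunit factors, PES1 is a subunit of the PeBoW complex, RRS1 a factor that helps bring in the 5S particle, and GNL3 (nucleostemin) a nucleolar GTPase. PES1 had 113, 116, 111 and 111 CPM in WT solvent and 63.4, 74.8, 78.9 and 70.8 CPM at 24 h. In mut it had 105, 104, 97.8 and 107 CPM in solvent and 91.2, 92.7, 95.9 and 94.3 CPM at 24 h, which did not overlap but did not pass the test (adjusted p = 0.105). RRS1 had 60.8, 71.1, 73.9 and 68.9 CPM in WT solvent and 38.6, 38.5, 38.4 and 39.2 CPM at 24 h, and in mut it went from 63.5, 65.0, 67.6 and 71.4 CPM to 53.6, 54.6, 53.1 and 57.3 CPM. GNL3 had 182, 187, 196 and 185 CPM in WT solvent and 105, 116, 113 and 119 CPM at 24 h. Its mut levels were 168, 175, 167 and 155 CPM in solvent and 136, 150, 137 and 138 CPM at 24 h. These 3 genes changed by -0.65, -0.82 and -0.73 in WT at 24 h. BRIX1, which acts in early 60S assembly, was the strongest of the group at -0.99 ± 0.09, and it also had the largest change of any member in mut at 6 h, at -0.41 ± 0.08 (adjusted p = 0.00341). BRIX1 (-0.56) and RRS1 (-0.55) followed POLR1B in WT at 6 h, and BRIX1 changed by -0.40 and -0.25 in mut at 24 and 72 h. GNL2 had the smallest change at 24 h, at -0.38, and its log2 fold change in WT at 72 h was -0.00.

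In JUNB mut cells fewer members passed the test, and their changes were smaller. At 6 h 11 of 47 were lower, at 24 h 27 and at 72 h 8, where the background was 4.94%, 17.1% and 16.3% of tested genes, and 0 were higher (background 2.06%, 6.75% and 7.81%). The share of members called at 72 h was thus near the background share. Only POLR1B, RRN3, NOP56, DKC1 and BRIX1 were called at all 3 times in mut, against 33 members in WT. The share of all tested genes called at all 3 times was not counted. At the single times the WT background was also larger, at 11.9%, 38.0% and 38.4% lower. The median log2 fold change was -0.16, -0.24 and -0.12, beside -0.06, -0.10 and -0.09 for all tested genes. With TMM factors 7, 14 and 3 members were lower against a background of 2.06%, 8.04% and 9.91%, and BYSL was higher at 72 h (0.22, adjusted p = 0.0330). The library mut 6 h 1-2 had the highest mean of the members at 6 h (6.61 against 6.47 to 6.49), and without that library 18 members were lower at 6 h (background 9.04%). Without the mut 6 h library 65-1 or 65-2 the count was 3 or 4, without the mut solvent library 1-1 or 1-2 it was 7 or 6, and without the whole series 1-2 it was 15 (background 4.81%). With the series as a block, 17 members were lower at 6 h (background 11.6%). At 72 h the count was 5 without the library 1-2 and 4 without the whole series. With the 2 replications of a clone summed into 1 sample, 0, 16 and 3 members were lower in mut, where the background was 0.471%, 9.53% and 10.6%, so that the share of members at 72 h was below the background. BRIX1 in mut at 72 h had an adjusted p of 0.0534 without series 1-2.

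The genotypes were then compared directly at each treatment state. In solvent the members differed little, with a median log2 difference (mut against WT) of -0.08. NOB1 was higher in mut by 0.25 ± 0.08 (adjusted p = 0.0297), while POLR1C (-0.22, adjusted p = 0.0175) and NOP10 (-0.17, adjusted p = 0.0445) were lower, where the background was 6.38% of genes higher and 6.32% lower. Without series WT 27-2, or without series mut 1-2, 1 member was called in place of 3. Without WT 27-2 NOB1 (0.24, adjusted p = 0.0732) and NOP10 (-0.16, adjusted p = 0.126) did not pass, and without mut 1-2 POLR1C (-0.19, adjusted p = 0.0515) and NOP10 (-0.16, adjusted p = 0.0988) did not. POLR1C had 47.3, 49.7, 48.7 and 51.6 CPM in WT solvent and 43.8, 43.8, 39.0 and 42.3 CPM in mut solvent, and NOP10 had 102, 112, 111 and 108 CPM against 102, 98.9, 93.5 and 90.9 CPM. At 6 h 7 members were higher in mut (background 11.3%) and 0 lower (background 10.0%), and the largest differences were those of NOB1 (0.41), WDR74 (0.39) and RRS1 (0.36). Without series mut 1-2 this count was 4.

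At 24 h 44 of 47 members were higher in mut than in WT and 0 were lower, where the background was 24.7% higher and 12.2% lower. At 72 h 31 were higher and 0 lower, with a background of 26.0% and 13.2%. The median log2 difference was 0.39 at 24 h and 0.28 at 72 h, beside 0.09 and 0.10 for all tested genes. NOB1 (0.70 ± 0.08), TCOF1 (0.59 ± 0.11) and NCL (0.57 ± 0.07) differed most at 24 h. At 72 h the largest differences were those of NOB1 (0.67), FBL (0.57) and WDR74 (0.51), a 60S assembly factor. BYSL, DDX10 and NOP10 did not pass the test at 24 h. For 41 members, all 4 mut libraries at 24 h lay above all 4 WT libraries, where the background was 23.8%. With TMM factors 34 members were higher at 24 h (background 16.1%) and 26 at 72 h (background 18.7%), and GNL2 was lower at 72 h with that scaling.

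The interaction term tested whether the response itself differed, with positive values where the change was less negative in mut. At 6 h limma-voom called 0 members (background 0.00673% higher and 0.0673% lower), and 15 had an unadjusted p under 0.05 (background 5.14% in either direction). In edgeR's quasi-likelihood test and DESeq2, which also called 0 at 6 h, the latter count was 13 and 10 (background 5.19% and 5.07%). At 24 h the change was significantly less negative in mut for 35 of 47 members and more negative for 0 (background 7.72% higher and 1.93% lower). At 72 h this was so for 27 members and 0 (background 9.40% and 2.92%), of which 25 were also called at 24 h, and DDX10 and POLR1D were called at 72 h only. The median difference between the changes was 0.45 at 24 h and 0.36 at 72 h, beside 0.08 and 0.10 for all tested genes. The fitted change was less negative in mut for 47 of 47 members at 24 h and 46 at 72 h, where this held for 62.1% and 63.7% of all tested genes. TCOF1 (0.80 ± 0.16, adjusted p = 0.00262), LYAR (0.70 ± 0.13) and NCL (0.69 ± 0.10, adjusted p = 0.000102) differed most at 24 h. FBL (0.66 ± 0.11, adjusted p = 0.000533), LYAR (0.63 ± 0.13) and NOC3L (0.52 ± 0.12), which encodes a nucleolar 60S assembly factor, differed most at 72 h. With TMM factors 29 members were called at 24 h (background 2.98%) and 14 at 72 h (background 4.53%). With the replications of a clone summed, 16 and 11 were called, all of them higher (background 1.54% and 3.01%). At 24 h UTP20 (0.54, adjusted p = 0.0543) and RRN3 (0.24, adjusted p = 0.0874) did not pass without series WT 27-2, nor did NOB1 (0.39, adjusted p = 0.0701) and RRN3 (0.28, adjusted p = 0.0543) without series mut 1-2.

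**Figure D4:**
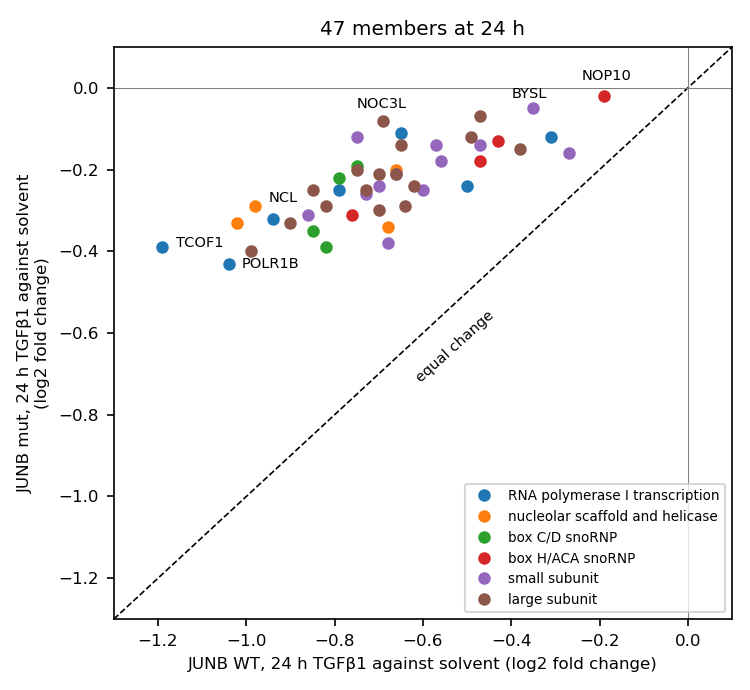
Log2 fold change of each member after 24 h of TGFβ1 against solvent in JUNB WT (horizontal axis) and JUNB mut (vertical axis), coloured by role, with the line of equal change. All 47 points lie above the line, from TCOF1 at -1.19 in WT and -0.39 in mut to NOP10 at -0.19 and -0.02.

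By role, the interaction at 24 h was called for 6 of 7 polymerase I factors, 3 of 4 scaffold and helicase proteins, 4 of 4 box C/D proteins, 1 of 4 box H/ACA proteins (DKC1), 7 of 12 small subunit factors and 14 of 16 large subunit factors. The background in this fit was 7.72% of tested genes higher and 1.93% lower. The 12 members not called at 24 h were BYSL, DDX10, GAR1, GNL2, NHP2, NOC2L, NOC4L, NOP10, NPM1, POLR1D, RRP12 and UTP4. With the series as a block, BYSL, GNL2, NOC2L, NPM1, RRP12 and UTP4 of these passed the test, where the background was 14.1% of tested genes higher.

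MYC RNA moved in the same comparisons. It had 624 ± 68.5 CPM in WT solvent, 384 ± 28.3 CPM at 6 h, 290 ± 16.7 CPM at 24 h and 309 ± 21.8 CPM at 72 h (SD, n = 4). In mut it had 619 ± 59.6 CPM in solvent, 516 ± 53.2 CPM at 6 h, 462 ± 31.6 CPM at 24 h and 487 ± 31.3 CPM at 72 h. MYC changed by -1.10 ± 0.08 in WT and by -0.42 ± 0.08 in mut at 24 h, and the difference was 0.68 ± 0.12 (adjusted p = 0.000703). The part of MYC in the members' change was not tested. MAX, its dimer partner, changed by -0.22 in WT at 24 h (adjusted p = 0.00901) and by -0.05 with TMM factors (adjusted p = 0.641). MXI1, a repressor that also binds MAX, fell by 0.91 in WT and by 0.61 in mut at 24 h, and the difference did not pass the test (adjusted p = 0.261). At 72 h the difference between its changes was 0.61 (adjusted p = 0.0111). MXI1 was higher in mut than in WT by 0.34 at 24 h (adjusted p = 0.027) and by 0.66 at 72 h (adjusted p = 7.84e-05). With TMM factors the value at 24 h did not pass (0.26, adjusted p = 0.0776). MXD1 (0.30), MXD4 (-0.31) and MNT (0.12), read from the same list, did not pass in WT at 24 h. With TMM factors MXD1 (0.48, adjusted p = 0.00392) and MNT (0.30, adjusted p = 0.000646) were higher there, and MXD4 did not pass. Compared with WT at 24 h, MNT was lower in mut (-0.42, adjusted p = 2.56e-05).

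The members' promoters were read for the sequences that MYC and the TGFβ1-linked factors recognise. RefSeq (GRCh38.p14) gave a promoter for 39 of the 47 members, taken here as the 250 bases before the start. The MYC-type E-box CACGTG, a palindrome that reads the same on both strands, lay in 4 of 39 (10.3%), beside 8.49% of 11690 promoters of tested genes. AP-1 sites (TGACTCA or TGAGTCA, each the reverse complement of the other) lay in 0 of 39, beside 2.96%, and the SMAD palindrome GTCTAGAC in 0 of 39, beside 0.163%. The 4 stretches that hold the E-box are shown, 86 bases each on the strand of the gene, with the E-box in capitals, because they let the changes of these members be read beside the sequence. NOP10 holds a second E-box at -170, outside the stretch shown. UTP20 lies at chr12:101280019-101280104 (plus strand), UTP4 at chr16:69132563-69132648 (plus), NOP10 at chr15:34343137-34343222 (minus) and EBNA1BP2 at chr1:43172735-43172820 (minus).
UTP20: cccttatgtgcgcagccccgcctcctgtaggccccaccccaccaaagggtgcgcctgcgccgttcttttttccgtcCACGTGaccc
UTP4: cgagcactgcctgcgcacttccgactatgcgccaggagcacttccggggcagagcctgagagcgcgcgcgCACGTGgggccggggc
NOP10: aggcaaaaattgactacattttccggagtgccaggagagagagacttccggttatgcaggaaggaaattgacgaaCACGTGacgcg
EBNA1BP2: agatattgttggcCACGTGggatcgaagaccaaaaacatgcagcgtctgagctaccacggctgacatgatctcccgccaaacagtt
The E-boxes shown lie at -10 (UTP20), -16 (UTP4), -11 (NOP10) and -237 (EBNA1BP2) from the start. Their log2 fold changes in WT at 24 h were -0.75 (UTP20), -0.68 (UTP4), -0.19 (NOP10) and -0.70 (EBNA1BP2). The median was -0.69 over these 4 and -0.66 over the 35 members without the E-box in this window, which ranged from -1.04 to -0.27, so that the ranges overlapped.

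A feature shared by several members is that they carry snoRNA genes inside them. In GENCODE 44, 7 of 47 members did so (14.9%: NCL, NOP56, NOP58, DKC1, GNL3, TSR1 and WDR43), beside 1.02% of 13762 tested protein-coding genes. NOP56 holds 5 such genes and GNL3 4. These 7 members changed by -0.98 to -0.70 in WT at 24 h. For 18 members the annotated span overlaps another gene of the table, on the same strand for 6 of them, so that some reads could have been assigned to either gene.

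The members were set beside other gene groups in the same fit. Of 117 other ribosome biogenesis genes, 70, 109 and 98 were lower in WT after 6, 24 and 72 h (background 11.9%, 38.0% and 38.4%). Their median changes were -0.27, -0.50 and -0.38. In mut 31, 48 and 14 were lower (background 4.94%, 17.1% and 16.3%), so that the share at 72 h was below the background. The interaction was called for 53 at 24 h and 41 at 72 h, all higher (background 7.72% and 9.40%). POLR1G, a polymerase I subunit gene named after its values were seen, was the 1 gene of this group that was higher after TGFβ1, by 0.35 in WT at 72 h and by 0.29 and 0.43 in mut at 24 and 72 h. POLR1G overlaps ERCC1 on the opposite strand, and the library kit does not keep strand. The 79 cytosolic ribosomal protein genes showed another course. In WT 0, 28 and 57 were lower over the same times (background 11.9%, 38.0% and 38.4%), with median changes of -0.01, -0.17 and -0.37. With TMM factors 0, 2 and 32 were lower (background 6.18%, 23.2% and 23.3%). At 24 h the share was thus near the background, and below it with TMM factors. In solvent 44 of the 79 were higher in mut than in WT (median 0.31), while 1 of the 47 biogenesis factors was (background 6.38%). The WT solvent libraries differed widely among themselves here. The mean log2(CPM + 0.5) of the 79 genes ran from 6.54 to 7.02 in them (SD 0.20, n = 4), and from 7.08 to 7.19 in mut solvent (SD 0.06). The interaction at 24 h was called for 2 ribosomal protein genes (background 7.72% higher and 1.93% lower), with a median of 0.00.

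Genes of DNA replication, set apart as signs of proliferation, were also lower in WT after TGFβ1. All 30 were lower in WT at 24 h (median -1.21, background 38.0%), 10 at 6 h (background 11.9%) and 27 at 72 h (background 38.4%). In mut 2, 17 and 1 were lower after 6, 24 and 72 h (background 4.94%, 17.1% and 16.3%). The share in mut was thus near the background at 6 h and below it at 72 h. The interaction was called for 28 of 30 at 24 h (background 7.72% higher and 1.93% lower). At 72 h it was called for 1 of 30, a share below the background of 9.40% higher and 2.92% lower, and for 27 of 47 biogenesis factors. The part of proliferation in the members' change was not tested.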

How the data were processed

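RNA-seq was performed on TruSeq RNA v2 libraries in 8 groups of 4. The deposited values are whole-number counts per gene, made by the authors with STAR on GRCh38 after trimming and not normalized. Whether counting used strand, and whether mates were counted separately, is not given in the sources used here, and 85% of values from 4 to 9 were even. Totals ranged from 39702412 to 54651906 counts per library (3 counts correspond to 0.0549 to 0.0756 CPM), and 0 columns were left unused. GENCODE 44 named 17763 of 17788 genes.

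As in the study's methods, counts were scaled by library size and fitted with voom of limma 3.58.1 (R 4.3.3), model ~0 + condition over 32 libraries, after filterByExpr of edgeR 4.0.16 (minimum count 10, total 15), which kept 14865 genes and every member. Tests were two-sided, with Benjamini-Hochberg adjustment over all genes tested and no minimum fold. The step was tested on simulated data, drawn without shared clone or series effects, so that error rates under such effects were not tested. All adjusted p-values come from this fit unless another is named. Replicates differed beyond sampling noise (smallest chi-square per degree of freedom 11.7). The study describes the replications as independent biological replicates, but they share clones, so p-values measure the spread between these libraries. Each series was seeded together, and its deviations from the group means correlated (mean 0.171 for mut 1-2, lowest pair -0.0601, to 0.747 for WT 27-2).

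Members and lists were chosen with earlier results of these data known. Values per library are given for 15 members fixed by role. The 3 members with the largest absolute log2 fold change among those called were also named for each comparison except the interaction at 6 h. Alternatives were TMM factors, edgeR's quasi-likelihood test, DESeq2 1.42.0, fitting without the filter or with genes averaging 50 counts or more (12417 genes), the series as a replicate block, clone sums, and leaving out libraries or series.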

Additional observations from a re-analysis of the deposited data

Results flagged for a closer look

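In 7 of 128 groups of 4 libraries (the mean of the members and 15 members, in 8 groups each), 1 library stood far from the others by Dixon's ratio, where chance flags about 1 in 20 groups. The mean of the members in mut 6 h 1-2 was 6.61 against 6.47 to 6.49 in the other 3. POLR1B had 142 CPM in the same library against 113 to 116, and 112 CPM in mut 72 h 65-2 against 127 to 129. In WT 6 h 2-2, GAR1 had 15.3 CPM against 19.1 to 19.8 and POLR1A had 70.6 CPM against 86 to 88.5. GNL3 had 150 CPM in mut 24 h 65-1 against 136 to 138, and NOB1 had 34.4 CPM in WT 72 h 2-2 against 38.2 to 38.5.

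The response to TGFβ1 differed between the genotypes, by the interaction test, for these named members. At 24 h the mut change was less negative than the WT change by 0.80 for TCOF1, 0.70 for LYAR, 0.69 for NCL, 0.63 for UTP20, 0.61 for POLR1B, 0.56 for FBL, 0.54 for POLR1A, 0.53 for RRS1, 0.51 for PES1, 0.48 for GNL3, 0.45 for DKC1, 0.45 for NOB1, 0.43 for NOP56 and 0.26 for RRN3 on the log2 scale. At 72 h it was less negative by 0.66 for FBL, 0.63 for LYAR and 0.52 for NOC3L.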

How the results depend on the processing

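Of 235 alternatives to the 13 counts of called members, 202 gave a count within 1.5 times that reported. The counts in mut at 6 h were 7 with TMM factors, 17 with the series as a replicate block, 0 with clone sums and 3 to 18 when 1 library was left out. In mut at 24 h they were 14 with TMM factors, 13 with DESeq2 and 16 with clone sums. In mut at 72 h they were 4 with TMM factors, 4 with DESeq2, 3 with clone sums, 4 without series 1-2 and 5 to 8 without 1 library (5 without mut 72 h 1-2). For mut against WT in solvent they were 0 with clone sums, 1 without series WT 27-2, 1 without series mut 1-2 and 1 to 4 without 1 library, and at 6 h they were 4 with clone sums, 4 without series mut 1-2 and 4 to 8 without 1 library. For the interaction they were 0 to 1 at 6 h without 1 library (1 without WT 6 h 27-2), 16 at 24 h with clone sums, and at 72 h 14 with TMM factors, 16 with DESeq2 and 11 with clone sums. Clone sums leave 2 samples in a group. Otherwise the cause was not tested. With the replicate block the counts in WT were 39, 47 and 45 and those of the interaction 0, 41 and 38. For the interaction at 24 h the background with the block was 14.1% of tested genes higher, against 7.72% in the main fit. The background of the other counts with the block in WT and the interaction, and of the DESeq2 counts, is not given here. These counts thus describe the processing only. Of 1412 alternatives to 77 fold changes of named members, 1332 kept direction and call, 74 lost the call, 4 gained it and 2 changed sign, both of BYSL in mut at 24 h (0.04 with TMM factors and 0.05 with DESeq2). The series block called FBL in mut at 24 h (adjusted p = 0.0139) and BYSL in the interaction at 24 h (adjusted p = 0.0249).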

Other observations

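The other ribosome biogenesis genes could be divided by step as well. In WT at 24 h, 43 of 45 small subunit genes, 38 of 40 large subunit genes, 8 of 8 snoRNP genes and assembly factors, 8 of 10 polymerase I genes and 12 of 14 genes of the RNA exosome (the nuclease that trims ribosomal precursors) and its cofactors were lower, where the background was 38.0% of tested genes. The medians were -0.51, -0.48, -0.66, -0.48 and -0.52. The 8 genes that did not pass were POLR1G (-0.01), TAF1C (-0.21), RRP36 (-0.03), TSR3 (-0.09), ZNF622 (-0.04), NOP53 (-0.18), EXOSC1 (-0.19) and C1D (-0.05). In mut at 24 h, 19, 18, 4, 5 and 3 genes of these groups were called, among them POLR1G as higher (background 17.1% lower and 6.75% higher). The share of the exosome genes was thus near the background. In solvent RIOK1 (0.25) and NSA2 (0.26) were the 2 genes of these groups that were higher in mut than in WT, a share below the background of 6.38%.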
